A study of Mus musculus with 16 samples.

Results

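Toll-like receptors (TLR) and their chaperones were examined in splenic B-cells through 10 genes, named by symbol with earlier results of these data known: the surface receptors *Tlr1*, *Tlr2*, *Tlr4* and *Tlr6*, the endosomal receptors *Tlr3*, *Tlr7* and *Tlr9*, the TLR4-like receptor *Cd180* with its secreted partner *Ly86*, and the trafficking chaperone *Unc93b1*. All 10 were found once each among the 38355 genes measured, and all 10 were among the 12507 genes tested. The study sequenced RNA of 4 B-cell subsets sorted from spleen by flow cytometry, namely transitional 1 (T1), transitional 2 (T2), marginal zone (MZ) and follicular (FO) B-cells. Each subset was taken from Mir-146a-/- mice (KO) and from wild-type mice (WT), both on the C57BL/6 background and with no treatment stated, which gave 8 groups of 2 libraries and 16 libraries in all. The KO lacks miR-146a in every cell of the body, so each KO subset developed among other cells that lacked it too. Each sample was sorted from a pool of spleens from 3 to 5 mice, and the age of these mice is not given in the sources used here. The question was how RNA levels change as T1 cells become T2 cells and then MZ or FO B-cells, and how they depend on miR-146a.

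TLRs recognise conserved molecules of microbes. TLR1, TLR2, TLR4 and TLR6 sit at the cell surface and bind bacterial lipopeptides or lipopolysaccharide, whereas TLR3, TLR7 and TLR9 sit in endosomes and bind double-stranded RNA, single-stranded RNA and unmethylated CpG DNA. B-cells carry both a B-cell receptor and TLRs, and MZ B-cells, which face the blood of the splenic marginal sinus, are known for fast antibody responses to microbial products without T-cell help. miR-146a is induced by NFκB, the transcription factor that TLRs activate, and is known to repress the mRNAs of the signalling proteins TRAF6 and IRAK1 downstream of most TLRs.

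miR-146a-5p is shown because the KO removes it, and the only match to its seed in a 3′ UTR of the 10 genes is shown beside 2 of the matches in the mRNAs of the known targets. The mature sequence is that of RefSeq on GRCm38.p6, and capitals mark its seed, bases 2 to 8. It is encoded on the minus strand at chr11:43374435-43374456. The sites below it are read from GENCODE M21 transcripts on GRCm38, and capitals mark the letters that pair with the seed together with an A opposite base 1 of the miRNA.
mmu-miR-146a-5p: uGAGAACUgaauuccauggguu
*Cd180* site (chr13:102703097-102703118, plus strand): agttctaaggcagtgGTTCTCA
*Irak1* site (chrX:74015393-74015414, minus strand): gactcagaggtcaaAGTTCTCA
*Traf6* site (chr2:101697945-101697966, plus strand): ccgctctggtgttgAGTTCTCA
The search used the letters AGTTCTCA, AGTTCTC and GTTCTCA in the longest annotated 3′ UTR of each gene. *Cd180* had 1 match, GTTCTCA, which starts at base 241 of its 1391 base 3′ UTR, and the other 9 genes had none in 3′ UTRs of 148 bases (*Tlr2*) to 1496 bases (*Tlr3*). Among all tested genes with such an annotation, 2098 of 10264 (20.4%) had at least 1 match of any kind. *Traf6* had 4 matches and *Irak1* had 3. A match of letters is not a measured site.

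In these libraries all 16 carried B-cell transcripts at high levels, with *Cd79a*, a subunit of the B-cell receptor complex, at 771 to 1640 RPKM (reads scaled to the length of the transcript and to the mapped total of the library). The summed RPKM of 7 MZ B-cell markers, among them *Cr2* and *Cd1d1*, was 2028 to 2475 in MZ libraries and at most 514 in any other, and that of 5 transitional markers was 1197 to 1649 in T1, 598 to 729 in T2 and at most 477 in MZ and FO libraries. Mapped reads behind the values numbered 9003343 to 26386684 per library. Other cells were represented unevenly. The sum of 12 macrophage markers, none of which was at 0 in a whole subset, was 8.01 to 28.6 RPKM in T1 libraries, 22.9 to 51.0 RPKM in T2 libraries, 19.0 to 30.6 RPKM in MZ libraries and 8.25 to 13.2 RPKM in FO libraries. The sum of 8 neutrophil and monocyte markers was 6.18 to 87.9, 62.7 to 104, 8.10 to 44.4 and 1.40 to 30.1 RPKM in the same order. The sum of 4 plasma cell markers was 478 to 4039 RPKM in T1 libraries and 33.9 to 73.5 RPKM in all others. Within T1 it was 4039 RPKM in KO replicate 2 and 2935 RPKM in WT replicate 2, against 1223 RPKM in KO replicate 1 and 478 RPKM in WT replicate 1.

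A gene was called when limma's moderated test on log2(RPKM + 0.5), adjusted by Benjamini-Hochberg over all tested genes, gave an adjusted p under 0.05, the difference exceeded 1 on the log2 scale in size, and a compared group had a mean RPKM over 1. Differences that passed the adjusted p but stayed within 1 are described as passing without a call. Unless a genotype is named, subsets are compared over their 4 libraries, 2 KO and 2 WT. As spleens were pooled and each group had 2 libraries, the p-values measure the spread between such pools. In sorted bulk RNA, fewer cells of a kind and less RNA per cell cannot be told apart.

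Most of the 10 RNAs were higher in MZ B-cells than in the subsets they were compared with. Against T2, 7 of the 10 genes passed upwards and none downwards, beside 22.8% of all tested genes that passed upwards. *Tlr3* and *Tlr7* were called, beside 6.58% of all tested genes called upwards. Against FO, 8 genes passed upwards and none downwards, beside 19.9% of all tested genes, and *Tlr3*, *Tlr7* and *Cd180* were called, beside 5.79%. The median log2 difference of the 10 genes was 0.48 in MZ against T2 and 0.60 in MZ against FO, and that of all tested genes was 0.02 and 0.04. In each of the 2 comparisons, 8 of the 10 genes had all 4 MZ libraries above all 4 of the other subset, as did 22.5% of all tested genes against T2 and 25.3% against FO.

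**Figure D1:**
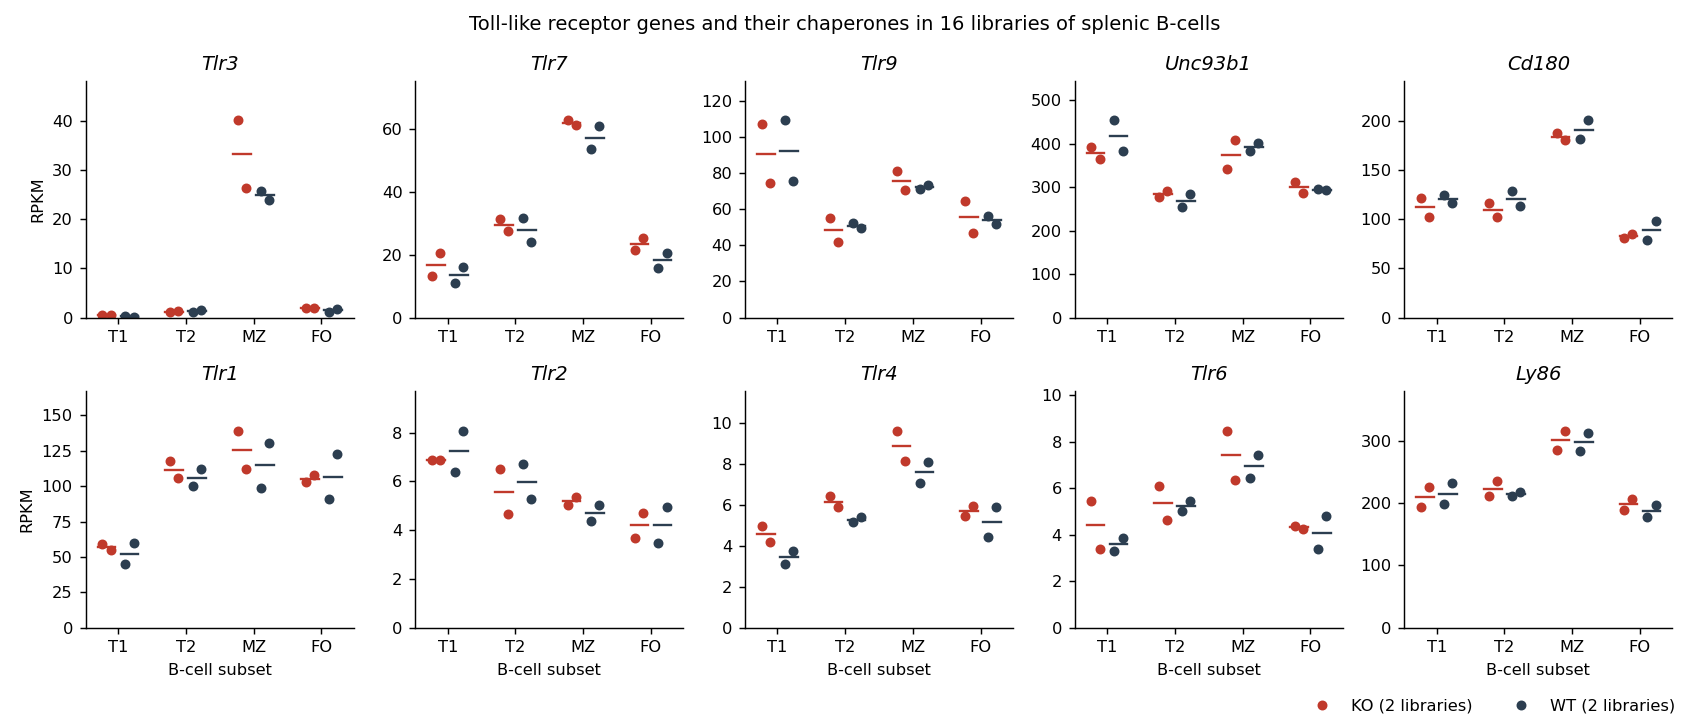
RPKM of the 10 genes in each library, by subset on the horizontal axis (T1, T2, MZ, FO), with KO in red to the left of WT in dark blue. Points are libraries and lines are means of 2 libraries, and each vertical axis starts at 0. *Tlr3* reaches 24.0 to 40.0 RPKM in MZ and stays at or under 1.92 RPKM elsewhere, whereas *Tlr9* and *Unc93b1* are highest in T1 and MZ libraries.

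*Tlr3* (chr8:45395665-45411080, minus strand, GRCm38), the receptor for double-stranded RNA, was nearly restricted to MZ B-cells. In T1 B-cells it had 0.428 and 0.425 RPKM in KO libraries and 0.417 and 0.0491 RPKM in WT libraries, from 27 reads or fewer each and only 3 reads in the lowest. In T2 B-cells it had 1.16 and 1.29 RPKM in KO and 1.09 and 1.62 RPKM in WT libraries. In MZ B-cells it had 40.0 and 26.3 RPKM in KO and 25.8 and 24.0 RPKM in WT libraries. These came from 1993 to 2376 reads each, so counting error was small beside the differences between libraries. In FO B-cells it had 1.92 and 1.88 RPKM in KO and 1.19 and 1.80 RPKM in WT libraries. The 4 MZ libraries were therefore above all 12 others, and the T1 libraries were below all others.

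The mean of *Tlr3* was 29.0 ± 7.41 RPKM in MZ B-cells, against 1.29 ± 0.237 RPKM in T2 B-cells (SD, n = 4 each), a ratio of 22.5. The log2 difference was 4.02 (SE 0.19, limma adjusted p = 1.03e-07). Against the 1.70 ± 0.344 RPKM of FO B-cells the ratio of means was 17.1 and the log2 difference 3.73 (SE 0.19, limma adjusted p = 1.75e-07). The pseudocount of 0.5 makes the log2 differences smaller than the ratios of means. Both differences were called within each genotype too, at 4.26 in KO and 3.79 in WT for MZ against T2 and at 3.78 in KO and 3.68 in WT for MZ against FO. *Tlr3* was also called in T2 against T1, with a mean of 1.29 RPKM in T2 against 0.330 RPKM in T1 (log2 difference 1.13, SE 0.19, limma adjusted p = 0.00162). That call rested on levels near the pseudocount and was made in WT (1.37) but not in KO (0.90, limma adjusted p = 0.0559), the difference between the genotypes having an adjusted p of 1 in limma. It was lost when WT T1 replicate 2 was left out (0.95), with a pseudocount of 1 (0.79) and under quantile normalization (0.993). FO and T2 libraries overlapped, and their difference of 0.29 (95% interval -0.13 to 0.71) did not pass.

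*Tlr7* (chrX:167304929-167330558, minus strand), the receptor for single-stranded RNA, was also highest in MZ and, by its mean, lowest in T1 B-cells, over a smaller range. It had 13.2 and 20.4 RPKM in KO T1 and 10.9 and 16.2 RPKM in WT T1 libraries. In T2 B-cells it had 31.3 and 27.5 RPKM in KO and 31.6 and 24.1 RPKM in WT libraries. In MZ B-cells it had 62.8 and 61.2 RPKM in KO and 53.7 and 60.9 RPKM in WT libraries. In FO B-cells it had 21.5 and 25.3 RPKM in KO and 15.9 and 20.6 RPKM in WT libraries. All 4 MZ libraries were thus above all others, while FO overlapped both T1 and T2.

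The mean of *Tlr7* was 59.7 ± 4.03 RPKM in MZ B-cells, against 28.6 ± 3.55 RPKM in T2 B-cells (SD, n = 4 each), a log2 difference of 1.05 (SE 0.17, limma adjusted p = 0.000473). Without WT T2 replicate 2 that difference was 0.96, under the fold required for a call. Against the 20.8 ± 3.87 RPKM of FO B-cells the log2 difference was 1.51 (SE 0.17, limma adjusted p = 4.12e-05). In T2 against T1 it passed without a call, at 28.6 RPKM against 15.2 RPKM (log2 difference 0.92, SE 0.17, limma adjusted p = 0.00236). In FO against T2 the difference of -0.46 had an adjusted p of 0.0924 by limma and did not pass. *Tlr8*, the neighbour of *Tlr7* on the X chromosome and a receptor for RNA degradation products in humans, had 20 reads or fewer in every library.

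*Tlr9* (chr9:106222598-106226883, plus strand), the receptor for CpG DNA, had another order. Its mean was highest in T1 B-cells, with 107 and 74.2 RPKM in KO and 109 and 75.8 RPKM in WT libraries. Its mean was lowest in T2 B-cells, with 55.1 and 41.9 RPKM in KO and 52.5 and 49.3 RPKM in WT libraries. In MZ B-cells it had 81.0 and 70.4 RPKM in KO and 71.0 and 73.3 RPKM in WT libraries. In FO B-cells it had 64.4 and 46.9 RPKM in KO and 55.9 and 51.8 RPKM in WT libraries. The 4 T1 libraries did not overlap the 4 T2 libraries, and replicate 1 was above replicate 2 in both genotypes at T1.

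The mean of *Tlr9* was 49.7 ± 5.72 RPKM in T2 B-cells, against 91.4 ± 19.0 RPKM in T1 B-cells (SD, n = 4 each), a log2 difference of -0.86 (SE 0.16, limma adjusted p = 0.00265). MZ B-cells passed above T2, at 73.9 ± 4.86 RPKM against 49.7 RPKM (log2 difference 0.57, SE 0.16, limma adjusted p = 0.0129). MZ against FO (54.7 ± 7.42 RPKM) was at the edge of the threshold, with a log2 difference of 0.44 (SE 0.16, limma adjusted p = 0.0487). It no longer passed when any 1 of 9 of the 16 libraries was left out, the highest adjusted p by limma being 0.174 without KO FO replicate 2. *Tlr9* and *Tlr7* stood in different proportions in the 4 subsets. The RPKM of *Tlr7* divided by that of *Tlr9*, both per length, was 0.0996 to 0.275 in T1, 0.489 to 0.656 in T2, 0.757 to 0.870 in MZ and 0.285 to 0.540 in FO libraries. *Tlr9* RNA exceeded *Tlr7* RNA in all 16 libraries, and the 4 MZ libraries had the ratios closest to 1.

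*Unc93b1* (chr19:3935186-3949340, plus strand) encodes the chaperone that carries TLR3, TLR7 and TLR9 from the endoplasmic reticulum to endosomes. It was the most abundant of the 10 RNAs per length in every library. It had 393 and 366 RPKM in KO T1 and 454 and 384 RPKM in WT T1 libraries. In T2 B-cells it had 278 and 292 RPKM in KO and 254 and 285 RPKM in WT libraries. In MZ B-cells it had 341 and 409 RPKM in KO and 383 and 401 RPKM in WT libraries. In FO B-cells it had 313 and 288 RPKM in KO and 295 and 294 RPKM in WT libraries. T1 and MZ libraries were all above T2 and FO libraries and overlapped each other. *Unc93b1* thus had the order of *Tlr9* (T1, MZ, FO, T2 from high to low), and over the 16 libraries the log2 values of the pair had a Pearson r of 0.85, given as a description since libraries of a subset share their cell type.

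The difference of *Unc93b1* was -0.52 in T2 against T1 (277 ± 16.3 RPKM in T2, 399 ± 38.3 RPKM in T1, SE 0.09, limma adjusted p = 0.0018). It was 0.47 in MZ against T2 (384 ± 30.4 RPKM in MZ, SE 0.09, limma adjusted p = 0.00169) and 0.36 in MZ against FO (298 ± 10.9 RPKM in FO, SE 0.09, limma adjusted p = 0.00837). Under quantile normalization none of the 3 passed, at -0.30, 0.35 and 0.22, with adjusted p by limma of 0.219, 0.113 and 0.332. At this high level, *Unc93b1* varied by less than 1 log2 unit between any pair of subsets.

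**Figure D2:**
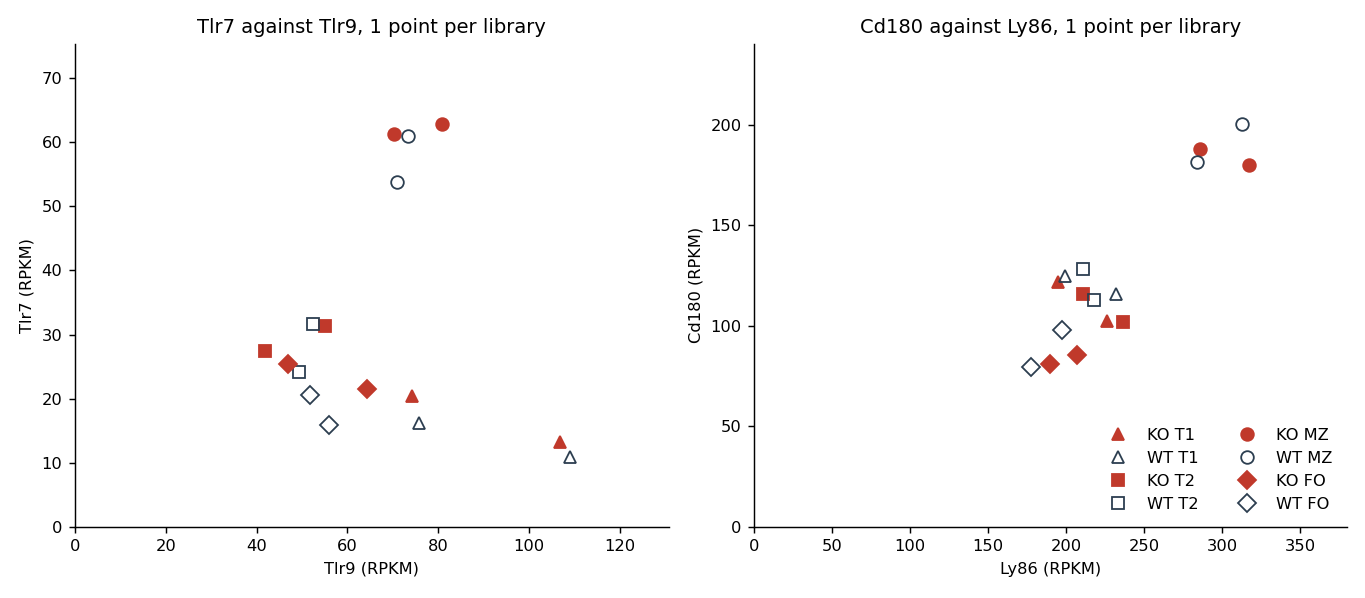
*Tlr7* against *Tlr9* (left) and *Cd180* against *Ly86* (right), in RPKM on linear axes from 0, 1 point per library, with filled red symbols for KO, open blue symbols for WT and a symbol shape per subset. MZ libraries lie apart from the others in both panels, and the T1 libraries combine 74.2 to 109 RPKM of *Tlr9* with 10.9 to 20.4 RPKM of *Tlr7*.

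The surface receptors differed in level. *Tlr1* (chr5:64924679-64933563, minus strand), which pairs with TLR2 to bind triacylated lipopeptides, had 44.8 to 139 RPKM. Its partner *Tlr2* (chr3:83836272-83841767, minus strand) had 3.48 to 8.09 RPKM, *Tlr4* (chr4:66827584-66930284, plus strand) 3.11 to 9.62 RPKM and *Tlr6* (chr5:64952031-64960097, minus strand) 3.31 to 8.48 RPKM over the 16 libraries. *Tlr1* and *Tlr6* lie side by side on chromosome 5 and are close copies. Of the 2926 windows of 100 bases, the read length, in the longest *Tlr1* transcript, 259 (8.85%) occur without change in a *Tlr6* transcript and 730 (24.9%) with up to 2 mismatches. As only uniquely aligned reads were kept, levels of both genes are uncertain over that stretch.

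*Tlr1* was lowest in T1 B-cells and overlapped among the other 3 subsets. In T1 it had 59.5 and 54.9 RPKM in KO and 44.8 and 59.6 RPKM in WT libraries. In T2 it had 118 and 105 RPKM in KO and 100 and 112 RPKM in WT libraries. In MZ it had 139 and 112 RPKM in KO and 98.7 and 131 RPKM in WT libraries. In FO it had 103 and 108 RPKM in KO and 90.8 and 122 RPKM in WT libraries. T2 passed above T1 with no overlap, at 109 ± 7.75 RPKM against 54.7 ± 6.98 RPKM (SD, n = 4 each), and its log2 difference of 0.99 (SE 0.13, limma adjusted p = 0.000457) was just under the size for a call. MZ B-cells overlapped T2 and FO B-cells, with differences of 0.13 (95% interval -0.16 to 0.43) and 0.18 (95% interval -0.12 to 0.47), and FO against T2 gave -0.04 (95% interval -0.34 to 0.25).

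*Tlr2* did not pass in any of the 4 comparisons between subsets, which do not set MZ or FO against T1. Its mean was 7.05 ± 0.731 RPKM in T1, 5.79 ± 0.988 RPKM in T2, 4.95 ± 0.424 RPKM in MZ and 4.21 ± 0.737 RPKM in FO B-cells (SD, n = 4 each). The log2 difference in T2 against T1 was -0.27 (95% interval -0.59 to 0.05) and in FO against T2 -0.42 (95% interval -0.74 to -0.10, limma adjusted p = 0.0851). The difference in FO against T2 passed, at -0.53 (limma adjusted p = 0.0489), when KO T2 replicate 2 was left out. *Tlr1* RNA was 7.02 to 8.67 times *Tlr2* RNA per length in T1 libraries and 14.9 to 27.9 times in the other 12 libraries, with no overlap.

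*Tlr4*, the lipopolysaccharide receptor, and *Tlr6*, which pairs with TLR2 to bind diacylated lipopeptides, were highest in MZ B-cells. *Tlr4* had 4.95 and 4.16 RPKM in KO T1 and 3.11 and 3.77 RPKM in WT T1 libraries. It had 6.43 and 5.88 RPKM in KO T2 and 5.16 and 5.39 RPKM in WT T2 libraries. In MZ it had 9.62 and 8.12 RPKM in KO and 7.04 and 8.11 RPKM in WT libraries. In FO it had 5.46 and 5.93 RPKM in KO and 4.43 and 5.87 RPKM in WT libraries. All MZ libraries were above all T2 and FO libraries. Its log2 difference was 0.49 in MZ against T2 (SE 0.11, limma adjusted p = 0.00435), 0.56 in MZ against FO (SE 0.11, limma adjusted p = 0.00216) and 0.48 in T2 against T1 (SE 0.11, limma adjusted p = 0.00885), each passing without a call.

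*Tlr6* averaged 7.18 ± 0.991 RPKM in MZ, against 4.20 ± 0.591 RPKM in FO B-cells (SD, n = 4 each), and passed there with a log2 difference of 0.71 (SE 0.16, limma adjusted p = 0.00535). Against the 5.30 ± 0.635 RPKM of T2 B-cells the 4 MZ libraries did not overlap, but the difference of 0.40 (limma adjusted p = 0.0651) did not pass. It passed without KO T1 replicate 1, KO T1 replicate 2 or KO MZ replicate 2 (limma adjusted p = 0.0367, 0.0367 and 0.0483). It averaged 4.01 ± 1.00 RPKM in T1 B-cells, and T2 against T1 gave 0.38 (95% interval 0.03 to 0.73, limma adjusted p = 0.107), which passed at 0.53 without KO T1 replicate 1 (limma adjusted p = 0.0316). Macrophages and monocytes also express *Tlr2* and *Tlr4*. All 4 MZ libraries were above all 4 T2 libraries for *Tlr4*, while 3 of the 4 T2 libraries were above all MZ libraries for the macrophage sum. In MZ against FO, where *Tlr4* passed upwards, the macrophage sum was 19.0 to 30.6 RPKM against 8.25 to 13.2 RPKM. In T2 against T1, where *Tlr4* also passed upwards, that sum was 22.9 to 51.0 RPKM against 8.01 to 28.6 RPKM. The part of other cells in these low levels was not tested.

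*Cd180* (chr13:102693558-102739629, plus strand) encodes RP105, a surface receptor related to TLR4 that lacks its intracellular signalling domain, and *Ly86* (chr13:37345208-37419036, plus strand) encodes MD-1, the secreted protein that RP105 needs to reach the surface. Both were highest in MZ B-cells. *Cd180* had 122 and 102 RPKM in KO T1 and 125 and 116 RPKM in WT T1 libraries. In T2 B-cells it had 116 and 102 RPKM in KO and 129 and 113 RPKM in WT libraries. In MZ B-cells it had 188 and 180 RPKM in KO and 182 and 200 RPKM in WT libraries. In FO B-cells it had 81.0 and 85.4 RPKM in KO and 79.3 and 98.0 RPKM in WT libraries. The MZ libraries were above all others and the FO libraries below all others.

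The mean of *Cd180* was 187 ± 9.20 RPKM in MZ B-cells, against 85.9 ± 8.45 RPKM in FO B-cells (SD, n = 4 each), and it was called with a log2 difference of 1.12 (SE 0.09, limma adjusted p = 4.58e-06). Against the 115 ± 10.9 RPKM of T2 B-cells the difference was 0.71 (SE 0.09, limma adjusted p = 0.000125). *Cd180* was the only one of the 10 genes that passed in FO against T2, where it fell by 0.42 on the log2 scale (SE 0.09, limma adjusted p = 0.0256), beside 5.04% of all tested genes that passed downwards. That pass was lost without any 1 of KO T2 replicate 1, WT T2 replicate 1, KO FO replicate 1, KO FO replicate 2 or WT FO replicate 1 (limma adjusted p up to 0.123), and with the T2 and FO libraries fitted alone (limma adjusted p = 0.0653). T2 and T1 B-cells overlapped, with a difference of -0.02 (95% interval -0.22 to 0.18).

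*Ly86* varied less. It had 195 to 232 RPKM in T1, 211 to 236 RPKM in T2, 284 to 317 RPKM in MZ and 177 to 207 RPKM in FO libraries. MZ B-cells passed above T2 (log2 difference 0.45, SE 0.09, limma adjusted p = 0.00182) and above FO (0.64, SE 0.09, limma adjusted p = 0.000213), with no overlap in either. *Ly86* thus moved with *Cd180* but by less, and the RPKM of *Cd180* divided by that of *Ly86* was 0.568 to 0.658 in MZ and 0.413 to 0.496 in FO libraries, while T2 (0.432 to 0.609) and T1 libraries (0.452 to 0.626) overlapped both.

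**Figure D3:**
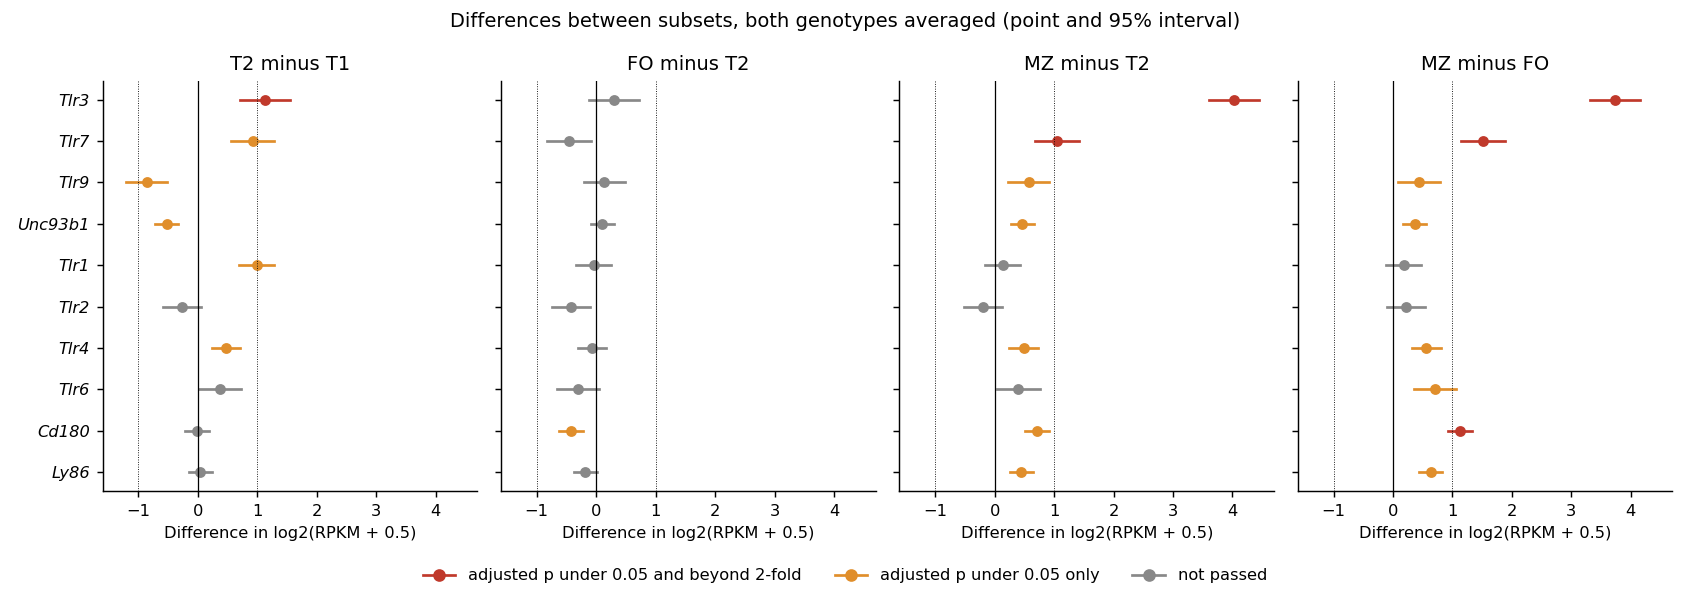
Log2 differences of the 10 genes between subsets, both genotypes averaged, with points for the estimate of limma and lines for its 95% interval. Dotted lines mark a difference of 1 in either direction, red marks called genes, orange those that passed the adjusted p only and grey those that did not pass. *Tlr3* stands far to the right in the 2 panels for MZ B-cells (4.02 and 3.73), and the panel for FO minus T2 has 1 orange gene, *Cd180*.

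The first step, T2 against T1, moved the genes in both directions. *Tlr1*, *Tlr3*, *Tlr4* and *Tlr7* passed upwards, beside 16% of all tested genes, and *Tlr9* and *Unc93b1* passed downwards, beside 9.94%. *Tlr3* alone was called, beside 2.27% of all tested genes called upwards. *Tlr1* was called too without any 1 of KO T1 replicate 1, WT T1 replicate 2, KO T2 replicate 2 or WT T2 replicate 1 (1.02 to 1.097), and *Tlr7* without KO T1 replicate 2, WT T1 replicate 2 or WT T2 replicate 2 (1.02 to 1.08). The T1 replicate 2 libraries were those with the most plasma cell transcripts. Their macrophage sums were also above those of replicate 1, at 28.6 against 8.33 RPKM in KO and 23.1 against 8.01 RPKM in WT. So were their neutrophil and monocyte sums, at 87.9 against 11.4 RPKM in KO and 14.8 against 6.18 RPKM in WT. With both T1 replicate 2 libraries left out, an alternative chosen after seeing the marker sums, 3 genes were called. These were *Tlr7* (1.22), *Tlr1* (1.07) and *Tlr9* (-1.12), while *Tlr3* (0.95), *Tlr4* (0.48) and *Unc93b1* (-0.61) passed without a call. The part of other cells in these shifts was not tested. *Tlr2*, *Tlr6*, *Cd180* and *Ly86* did not pass in either fit. In FO against T2, 0 of the 10 genes were called by limma on RPKM and 0 by limma-voom on reads, beside 1.14% of all tested genes. The 3 of 10 with an unadjusted p under 0.05 stand beside 31.2% of all tested genes.

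The promoters of *Tlr3* and *Cd180* are shown because these genes were called in MZ B-cells, and that of *Tlr9* because it had another order of stages. Each is the 250 bases before the gene's start in RefSeq (GRCm38.p6), and 7 of the 10 genes had such an entry. Capitals mark matches on either strand to 3 sets of letters: GAAA followed by any 2 bases and GAAA again, the core of the interferon-stimulated response element, TGGGAA, the core bound by the Notch effector RBP-J, and AGGAAG, a core bound by ETS factors. No match overlaps a match of another set in the windows shown.
*Tlr3* (chr8:45410381-45410630, minus strand): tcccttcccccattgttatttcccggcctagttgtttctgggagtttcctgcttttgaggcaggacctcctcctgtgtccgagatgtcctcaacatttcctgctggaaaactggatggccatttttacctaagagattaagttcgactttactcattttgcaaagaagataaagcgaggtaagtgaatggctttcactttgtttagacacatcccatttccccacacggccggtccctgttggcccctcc
*Cd180* (chr13:102693297-102693546, plus strand): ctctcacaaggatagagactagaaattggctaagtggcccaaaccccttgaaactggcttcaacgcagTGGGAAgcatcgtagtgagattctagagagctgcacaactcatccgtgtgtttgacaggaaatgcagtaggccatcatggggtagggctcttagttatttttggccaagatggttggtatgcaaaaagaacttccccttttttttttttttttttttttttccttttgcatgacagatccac
*Tlr9* (chr9:106222348-106222597, plus strand): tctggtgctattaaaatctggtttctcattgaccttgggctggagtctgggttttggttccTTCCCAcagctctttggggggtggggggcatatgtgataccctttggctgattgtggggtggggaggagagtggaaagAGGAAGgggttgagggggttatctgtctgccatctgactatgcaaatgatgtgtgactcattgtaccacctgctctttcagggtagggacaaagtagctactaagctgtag
In windows that also hold the 50 bases after the start, TGGGAA or its complement was found in 25.6% of 32851 promoters, AGGAAG or its complement in 35.4% and the interferon core in 3.44%. The *Tlr3* window had none of the 3. It lies inside the span of *Tlr3* given above, whose start on the minus strand is at 45411080. The bases before that start were not read. *Cd180* had TGGGAA in both of its windows, whose starts differ by 11 bases, and neither of the other cores. *Tlr9* had 1 TGGGAA and 2 AGGAAG, the second of them after the start. *Tlr2*, *Ly86* and *Tlr6* also had both TGGGAA and AGGAAG, and *Tlr1* had AGGAAG alone. *Tlr6* was the only one of the 7 genes with the interferon core, in 2 overlapping matches at -116 and -110 from the start of 1 of its windows. The matches are descriptions of letters and were found without data on binding.

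No difference between KO and WT passed for any of the 10 genes. Over the 4 subsets together, 0 of 10 were called by limma on RPKM and 0 by limma-voom on reads, beside 0.072% of all tested genes, and 1 had an unadjusted p under 0.05, beside 7.98% of all tested genes. Subset by subset both counts were 0, beside 0.04% of all tested genes for T1, 0.048% for T2, 0.064% for MZ and 0.032% for FO B-cells, and 1 of the 40 values had an unadjusted p under 0.05 (*Tlr4*, T1), beside 0.919% to 3.51% of all tested genes in the 4 subsets. The averaged differences ran between -0.10 (*Cd180*) and 0.24 (*Tlr3*), with a median of 0.06 beside 0.02 over all tested genes. Of the 40 differences within subsets, 27 were above and 13 below 0, between -0.15 and 0.38. These repeat the same 10 genes and are not independent, and the median over all tested genes was also above 0 in each subset (0.002 to 0.031).

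*Tlr4* had the lowest p of the 10 genes, with a KO minus WT difference of 0.23 over the 4 subsets (95% interval 0.06 to 0.40, unadjusted p = 0.0126, limma adjusted p = 0.529). The averaged comparison took all libraries as independent. Whether subsets of a genotype came from the same pools of spleens is not known, and if so its p-values could be too small and its intervals too narrow. Subset by subset the *Tlr4* difference was 0.36 (T1), 0.20 (T2), 0.21 (MZ) and 0.14 (FO). *Tlr3* had a difference of 0.24 (95% interval -0.06 to 0.54) and *Tlr7* one of 0.21 (95% interval -0.05 to 0.47). *Cd180*, the gene with a match to the seed, had -0.10 (95% interval -0.24 to 0.04). The intervals of the averaged differences lay between -0.25 and 0.54 for all 10 genes, and those within single subsets between -0.68 and 0.98.

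**Figure D4:**
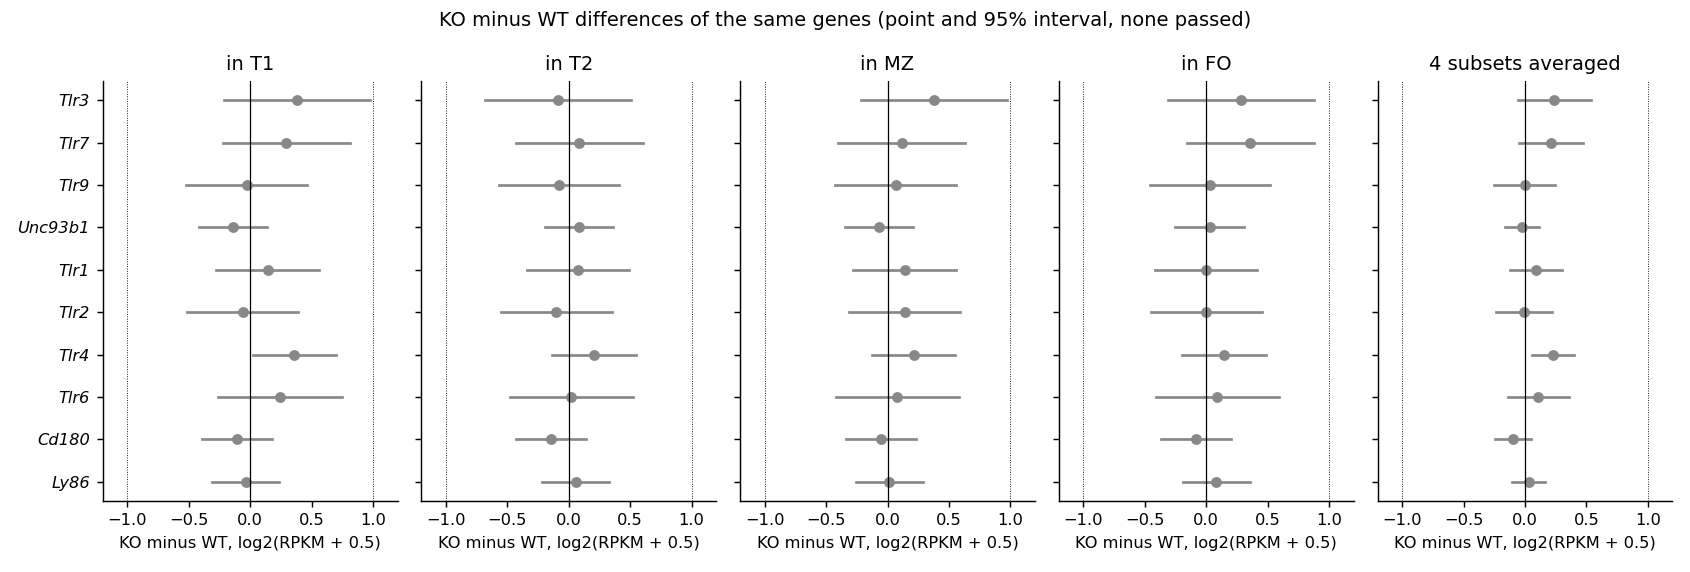
KO minus WT differences of the 10 genes in log2(RPKM + 0.5), in each subset and averaged over the 4, with 95% intervals of limma as lines and dotted lines at a difference of 1 in either direction. All 50 points lie between -0.15 and 0.38, and none passed the adjusted p.

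The differences between subsets were also compared between genotypes. By limma and by limma-voom, 0 of the 10 genes had a KO difference that departed from its WT difference at an adjusted p under 0.05, in MZ against T2 (0.008% of all tested genes called), MZ against FO (0%), FO against T2 (0.008%) or T2 against T1 (0%), and none of the 40 values had an unadjusted p under 0.05. The largest were of *Tlr3*, 0.47 in MZ against T2 (95% interval -0.37 to 1.31) and -0.47 in T2 against T1 (95% interval -1.31 to 0.37). These intervals are wide because each of them rests on 4 groups of 2 libraries. *Mir146*, the deleted gene, is too short for this kind of library to check the genotype labels by.

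Apart from *Tlr12*, the other TLRs were low. *Tlr5* had 3 reads or fewer in each library, *Tlr8* 20 or fewer, *Tlr11* 12 or fewer and *Tlr13* 36 or fewer, all under 1 RPKM and not tested. *Tlr8* was highest in T2 libraries (0.217 to 0.409 RPKM), with no overlap. *Tlr13*, a receptor for bacterial ribosomal RNA, had 0.269 to 0.627 RPKM in T2 libraries and up to 0.474 RPKM in T1 libraries. The macrophage marker sum was likewise higher in 3 of the 4 T2 libraries than in any other library, and its part in these values was not tested. *Tlr12*, a receptor for profilin of protozoa in mice, was the only other TLR tested. It had 7.56 and 4.28 RPKM in KO T1 and 5.70 and 4.55 RPKM in WT T1 libraries, 1.75 to 3.59 RPKM in T2, 0.567 to 0.932 RPKM in MZ and 1.27 to 1.75 RPKM in FO libraries. *Tlr12* fell by 1.24 on the log2 scale in MZ against T2 (SE 0.23, limma adjusted p = 0.00137), which was a call, and its difference in T2 against T1 was -0.96 (limma adjusted p = 0.0109). In MZ against FO its difference of -0.60 (limma adjusted p = 0.062) did not pass, although the libraries did not overlap.

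Of 15 genes for TLR partners and processing, 14 were found and 12 tested. In MZ against T2, 5 passed upwards (4 called) and 1 downwards (called), with a median of 0.04 beside 0.02 over all tested genes. Of all tested genes, 22.8% passed upwards (6.58% called) and 19.6% downwards (4.25% called) there. In MZ against FO, 5 passed upwards (3 called) and 1 downwards (called), with a median of 0.21 beside 0.04. Of all tested genes, 19.9% passed upwards (5.79% called) and 17.4% downwards (3.41% called) there. *Ly96* encodes MD-2, the lipopolysaccharide-binding partner of TLR4. It had 29.6 and 21.9 RPKM in KO MZ and 24.0 and 26.4 RPKM in WT MZ libraries, against 3.04 to 5.30 RPKM in FO, 4.01 to 9.03 RPKM in T2 and 11.1 to 15.3 RPKM in T1 libraries. Its log2 difference was 1.81 in MZ against T2 (limma adjusted p = 2.88e-05) and 2.61 in MZ against FO (limma adjusted p = 2.15e-06). In these comparisons *Ly96* had larger differences than *Tlr4* itself, in the same direction. In T2 against T1 they went opposite ways, with *Ly96* at -0.85 (limma adjusted p = 0.00828) and *Tlr4* at 0.48 (limma adjusted p = 0.00885). Of the 12 genes, 1 passed upwards and 4 downwards in T2 against T1, and 4 passed downwards in FO against T2, none of them called, beside 16% and 9.94% of all tested genes in T2 against T1 and 5.04% downwards in FO against T2.

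*Cd36*, a scavenger receptor that assists TLR2 and TLR6, had 78.2 to 82.2 RPKM in MZ, against 8.27 to 11.9 RPKM in FO and 15.3 to 30.2 RPKM in T2 libraries. It was called in MZ against FO (2.91) and MZ against T2 (1.98). *Ctsb*, a lysosomal protease of the class that cleaves endosomal TLRs, was called at 1.48 and 1.09 in the same 2 comparisons. *Slc15a3*, an endosomal transporter of peptides and histidine, went the other way, with 0.728 to 0.936 RPKM in MZ, against 2.96 to 3.91 RPKM in FO and 4.46 to 5.56 RPKM in T2 libraries. It was called in MZ against FO (limma adjusted p = 5.12e-06) and in MZ against T2, where the log2 difference was -2.01 (limma adjusted p = 6.70e-07). *Cd36*, *Ctsb* and *Ly96* are also expressed by macrophages, and the macrophage marker sum was 19.0 to 30.6 RPKM in MZ libraries, against 22.9 to 51.0 RPKM in T2 and 8.25 to 13.2 RPKM in FO libraries. These genes were lower than in MZ in both, and the part of macrophages in their differences was not tested.

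**Figure D5:**
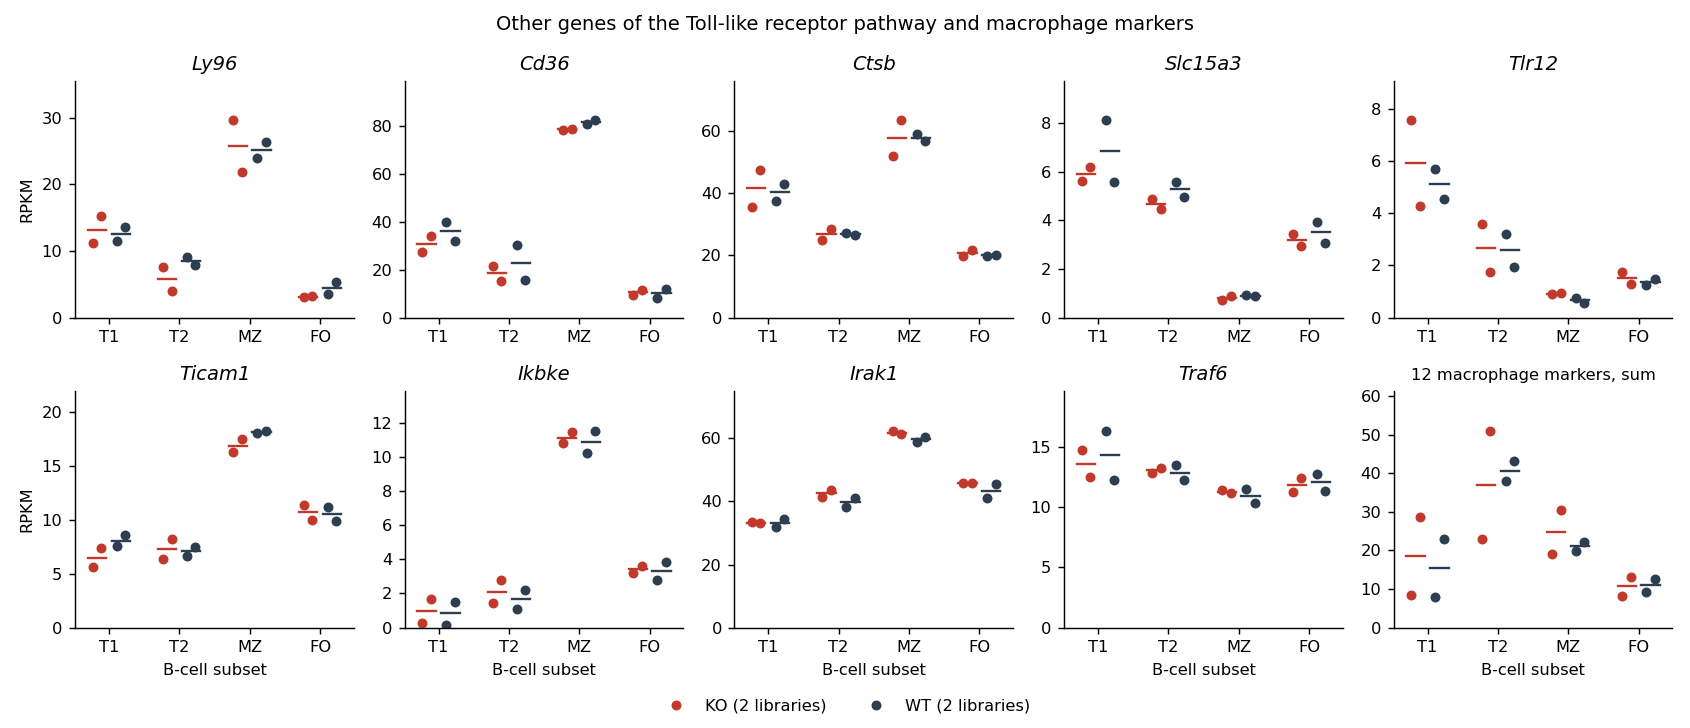
RPKM per library of named genes of the TLR pathway other than the 10, and the summed RPKM of 12 macrophage markers, by subset with KO in red to the left of WT in dark blue. Points are libraries, lines are means of 2 libraries, and axes start at 0. *Ly96*, *Cd36*, *Ctsb*, *Ticam1*, *Ikbke* and *Irak1* are highest in MZ libraries and *Slc15a3* and *Tlr12* lowest, while the macrophage sum is highest in 3 of the 4 T2 libraries.

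All 22 genes for TLR signal transduction were tested. In MZ against T2, 5 passed upwards (2 called) and 6 downwards, and in MZ against FO 4 passed upwards (1 called) and 6 downwards. The upward count against T2 is close to the 22.8% of all tested genes, and the other shares of all tested genes are 19.6% downwards against T2, 19.9% upwards and 17.4% downwards against FO. The list median was -0.05 and -0.02, beside 0.02 and 0.04 over all tested genes. The called genes were *Ticam1* and *Ikbke*. *Ticam1*, which encodes TRIF, the adaptor of TLR3, had 16.3 and 17.5 RPKM in KO MZ and 18.0 and 18.3 RPKM in WT MZ libraries, against 6.37 to 8.27 RPKM in T2 libraries. Its log2 difference was 1.23 in MZ against T2 (SE 0.11, limma adjusted p = 6.97e-06). In MZ against FO, where FO libraries had 9.92 to 11.4 RPKM, it passed at 0.70. *Ikbke*, a kinase that phosphorylates interferon regulatory factors, had 10.2 to 11.5 RPKM in MZ, against at most 2.76 RPKM in T2 and 2.79 to 3.83 RPKM in FO libraries, and was called at 2.32 and 1.58. In T2 against T1 the signalling list had 6 genes that passed upwards and 1 downwards, beside 16% and 9.94% of all tested genes. In FO against T2 it had 3 upwards (4.77% of all tested genes), and none of these genes was called in either comparison.

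Of 9 genes for negative regulators of TLR signalling, 8 were tested. In MZ against T2, 1 passed upwards and 1 downwards, beside 22.8% and 19.6% of all tested genes. In MZ against FO 1 passed upwards and 3 downwards, beside 19.9% and 17.4%, all within a difference of 1. The list median was -0.16 and -0.14, beside 0.02 and 0.04 over all tested genes. In T2 against T1, 3 passed upwards and 0 downwards, beside 16% and 9.94% of all tested genes, and 0 were called. *Irak1* and *Traf6*, the known targets of miR-146a, belong to the signalling list. *Irak1* passed without a call, at 0.56 in MZ against T2 and 0.44 in MZ against FO, with 58.9 to 62.5 RPKM in MZ libraries. *Traf6* had 10.3 to 16.4 RPKM in all 16 libraries and did not pass in any of the 4 comparisons between subsets. In KO against WT over the 4 subsets, *Irak1* had a difference of 0.06 (limma adjusted p = 0.697) and *Traf6* of -0.003 (limma adjusted p = 0.994). Of all the listed genes outside the 10, *Tnip1*, which encodes an inhibitor of NFκB signalling, was the only one that passed in KO against WT, at 0.40 over the 4 subsets (limma adjusted p = 0.0433, beside 0.232% of all tested genes that passed), without a call, and it is named here after its values were seen. This p too takes all libraries as independent, and could be too small if subsets of a genotype shared pools of spleens.

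The genes most like each of the 10 were sought for those whose group means spanned more than 1 log2 unit, by Pearson's r of log2(RPKM + 0.5) over the 16 libraries, with immunoglobulin and T cell receptor segments left out. *Tlr3* was most like *Tm6sf1* (r = 0.992), *Ccdc79* (0.991) and *Abhd12* (0.990). *Tlr7* was most like *Gpr34* (0.982), *Rdh10* (0.970) and *Cept1* (0.967). *Cd180* was most like *Rmnd1* (0.968), *Plgrkt* (0.965) and *Zfp141* (0.964). *Tlr1* was most like *Kynu* (0.979), *Macf1* (0.978) and *Mlh3* (0.975), and *Tlr4* like *Trim39* (0.979), *Ccdc77* (0.966) and *Nae1* (0.964). Among the 10 themselves the highest r was that of *Tlr4* with *Tlr7* (0.91) and the lowest that of *Tlr1* with *Tlr9* (-0.60). The 16 libraries fall into 4 subsets, so these values mostly describe the order of the subsets.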

How the data were processed

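RNA of 16 libraries of FACS-sorted splenic B-cells was sequenced (single-end, 100 bp, TruSeq RNA v2 kit). Reads were aligned with TopHat to mm10 with up to 2 mismatches, unique alignments were kept, and the authors deposited RPKM per gene. Versions of the tools: not given in the sources used here. The sources used here do not state whether the counting used strand. DESeq and edgeR, which the authors ran on counts, were not used. Values were whole multiples of 1 read for 23188 of 23194 genes above 0 (99.97%, tolerance 0.01 reads), which gave the mapped totals and reads.

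RPKM was tested as log2(RPKM + 0.5) with limma 3.58.1 (R 4.3.3) in 1 fit of 8 group means over 12507 genes with a group mean RPKM over 1, with Benjamini-Hochberg adjustment within each comparison, over 13 comparisons. The test was run on simulated data with independent noise in each library, which cannot check the effect of pools shared between libraries. Low values make small log2 differences, reads shared by close copies are lost under unique alignment, and intervals cover these libraries only. Levels differ between genes per length only as far as the transcript models hold. The 10 genes are always named. Of the other lists (other TLR, partners and processing, signal transduction, negative regulators), every other TLR and up to 4 called genes a list, the largest by size, were named, with *Traf6* and *Irak1*. For each of the 10 whose group means spanned over 1 on the log2 scale, the 3 genes with the highest Pearson r are named. Members and lists were chosen with earlier results of these data known. Alternatives were pseudocounts of 0.1 and 1, no filter, median-ratio and quantile normalization, replicate blocks, fits of the compared groups only, limma-voom on recovered reads, no fold criterion, and each library left out. Python 3.11.15, pandas 2.3.3 and matplotlib 3.10.9 were used for tables and plots.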

Additional observations from a re-analysis of the deposited data

Results flagged for a closer look

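In 3 of 40 sets of 4 libraries (a gene in a subset, both genotypes), the highest or lowest library stood apart from the other 3 by Dixon's criterion, which chance passes in about 1 of 20 sets. All 3 were of *Tlr3*. In T1 B-cells, WT replicate 2 had 0.0491 RPKM (3 reads), and the other 3 libraries had 0.417 to 0.428 RPKM. In MZ B-cells, KO replicate 1 had 40.0 RPKM, and the other 3 had 24.0 to 26.3 RPKM. In FO B-cells, WT replicate 1 had 1.19 RPKM, and the other 3 had 1.80 to 1.92 RPKM.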

How the results depend on the processing

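Counts of called genes among the 10 changed under few settings. Without a fold criterion they were 7 in MZ against T2, 8 in MZ against FO, 1 in FO against T2 and 6 in T2 against T1. In T2 against T1 the count was 0 with a pseudocount of 1 and 3 with both T1 replicate 2 libraries left out, a setting chosen after seeing the data. With single libraries left out it ran from 1 to 2 in MZ against T2 and from 1 to 2 in T2 against T1. Under quantile normalization *Tlr1* (1.004) was called in T2 against T1 in place of *Tlr3* (0.993). Directions that turned were all of values near 0: under quantile normalization *Tlr1* in FO against T2 (0.0019) and *Cd180* in T2 against T1 (0.10), under median-ratio scaling *Ly86* in T2 against T1 (-0.041), and with limma-voom *Tlr2* in KO against WT (0.0038). With single libraries left out, differences ran from -0.15 to 0.063 (*Tlr1*) and -0.17 to 0.020 (*Tlr4*) in FO against T2, from -0.080 to 0.046 (*Cd180*) and -0.011 to 0.098 (*Ly86*) in T2 against T1, from -0.063 to 0.051 (*Tlr2*), -0.069 to 0.061 (*Tlr9*) and -0.058 to 0.0080 (*Unc93b1*) in KO against WT over the 4 subsets, and from -0.042 to 0.33 for *Tlr4* in KO against WT of FO B-cells. Why these moved was not tested. Of the other values, *Ly86* in T2 against T1 passed under quantile normalization (0.33, limma adjusted p = 0.00603), and *Tlr9* in MZ against T2 did not pass without KO T2 replicate 2 (0.47, limma adjusted p = 0.0503). With single libraries left out, *Tlr6* passed in MZ against T2 (3 libraries) and T2 against T1 (1 library), and *Tlr2* in FO against T2 (1 library). *Tlr9* in MZ against FO did not pass without the filter (limma adjusted p = 0.0872) or with median-ratio scaling (0.0675).

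With a replicate block the counts of called genes were 2, 3, 0 and 1 in MZ against T2, MZ against FO, FO against T2 and T2 against T1, as without it. Over all genes, 143 were called in FO against T2, against 83 without the filter, 80 with T2 and FO libraries fitted alone and 15 to 192 with single libraries left out. Deviations of libraries with the same number correlated at 0.08 to 0.45 between subsets of a genotype and at -0.23 to 0.30 between genotypes of a subset, and the numbers were not treated as a pairing, which asked for more than 0.1 in every pair. All 12 correlations within a genotype were above 0, and all 6 in KO were above 0.1, so a shared origin of libraries with the same number within a genotype cannot be told from these values. With genotype and replicate number together as a block, *Tlr6* passed in MZ against T2 and in T2 against T1 (limma adjusted p = 0.00954 and 0.0193). This block could not be fitted for KO against WT. Levels of *Tlr3* in T1 B-cells rest on 3 to 27 reads, which limits the difference in T2 against T1.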
